A study of Homo sapiens with 12 samples.

Results

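JmjC histone lysine demethylases were followed at the level of their messenger RNA in human HEK293T cells, in which CARM1 or a subunit of the NuRD complex had been knocked down. The 10 genes KDM2A, KDM2B, KDM3A, KDM3B, KDM4A, KDM4B, KDM4C, KDM5A, KDM5B and KDM6B were listed by name, by a rule that sets no threshold on a measured value, out of 58662 gene identifiers matched to the annotation, and all 10 were among the 12830 coding genes tested. The cells had been transfected with control siRNA (siCTL) or with siCARM1, siCHD4, siHDAC2, siGATAD2A or siKDM1A, with 2 RNA-seq libraries for each of the 6 groups. All groups are wild type in genotype per the labels, carry the same growth description there, and are told apart by the siRNA. CARM1 is an arginine methyltransferase, CHD4 the remodelling ATPase of NuRD, HDAC2 a histone deacetylase, GATAD2A a scaffold subunit and KDM1A a flavin-dependent lysine demethylase. The study asked how CARM1 and NuRD act on gene transcription, and each knockdown was therefore set against siCTL and against the other knockdowns. HEK293T is a single transformed embryonic kidney line, a transient siRNA leaves part of the target in place, and the labels do not say that the 2 libraries of a group came from separate cultures. The p-values therefore measure only the spread between these libraries, which may be technical.

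JmjC demethylases are dioxygenases that use iron, oxygen and 2-oxoglutarate to hydroxylate the methyl groups of lysines, which then leave as formaldehyde. KDM2 enzymes act mainly on dimethylated H3K36, KDM3 enzymes on mono- and dimethylated H3K9, KDM4 enzymes on trimethylated H3K9 and H3K36, KDM5 enzymes on di- and trimethylated H3K4, and KDM6B on trimethylated H3K27. They are distinct from the flavin-dependent KDM1A, one of the targets here, which cannot remove a trimethyl mark.

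KDM2A, KDM2B and KDM6B were the members called higher than siCTL in all 5 knockdowns by the test described below, so the sequence around the most upstream listed transcription start of each is shown to place them. These windows hold 250 bases before and 50 bases after a start and come from RefSeq on GRCh38.p14, each on the strand of the gene and 5′ to 3′. Capitals mark CG dinucleotides, the motif that the CXXC zinc fingers of KDM2A and KDM2B are known to bind when unmethylated. The window of KDM2A lay at chr11:67119013-67119312 on the plus strand, that of KDM2B at chr12:121580974-121581273 on the minus strand and that of KDM6B at chr17:7833967-7834266 on the plus strand.
KDM2A: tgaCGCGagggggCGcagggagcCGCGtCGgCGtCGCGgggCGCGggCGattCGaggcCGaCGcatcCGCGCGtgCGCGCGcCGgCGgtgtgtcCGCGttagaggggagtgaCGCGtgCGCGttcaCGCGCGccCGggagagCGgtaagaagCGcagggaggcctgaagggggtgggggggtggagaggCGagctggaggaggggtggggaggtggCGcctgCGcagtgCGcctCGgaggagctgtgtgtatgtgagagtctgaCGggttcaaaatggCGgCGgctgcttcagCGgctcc
KDM2B: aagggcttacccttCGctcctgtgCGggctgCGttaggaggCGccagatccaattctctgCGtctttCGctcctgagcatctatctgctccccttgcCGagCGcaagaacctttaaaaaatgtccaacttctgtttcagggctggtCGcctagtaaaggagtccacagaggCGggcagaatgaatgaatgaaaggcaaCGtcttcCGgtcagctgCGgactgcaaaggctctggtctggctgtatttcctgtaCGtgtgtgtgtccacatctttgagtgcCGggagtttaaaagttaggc
KDM6B: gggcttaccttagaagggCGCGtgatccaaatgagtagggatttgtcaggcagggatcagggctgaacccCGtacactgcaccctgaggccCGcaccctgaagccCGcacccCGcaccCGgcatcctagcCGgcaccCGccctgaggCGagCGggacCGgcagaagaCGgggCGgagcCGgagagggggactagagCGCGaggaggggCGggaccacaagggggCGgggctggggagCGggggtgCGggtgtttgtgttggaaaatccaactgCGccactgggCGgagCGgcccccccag

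The KDM2A window held 44 CG dinucleotides, at percentile 96.5 of the 35116 windows of the same length, whose median was 14. The KDM6B window held 24 and the KDM2B window 15. The starts listed further downstream differed from these: 12 for the second KDM2A window, 33, 15 and 46 for the other KDM2B windows, and 2 for the second KDM6B window. All 10 members had at least 1 window, 16 in all. The GC box GGGCGG, read on both strands, occurred in 11 of these 16 and in 45% of all windows, with 5 copies in the KDM6B window and none in the KDM2A window. CCAAT was found in 8 of 16 member windows and 34.6% of all, and the ETS core CCGGAAG in 3 of 16 and 10.3%. The AP-1 motif TGANTCA occurred in 2 (7.71% of all windows), the E-box CACGTG in 2 (7.26%) and the HIF core ACGTG, which lies within the E-box, in 3 (21.4%). The TATA motif TATAAA (11.5%) and the CRE TGACGTCA (1.85%) were in no member window. A match is only a run of letters, and gene-level counts do not tell which start was used.

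Each library held 30642632 to 44981503 fragments, of which 19308315 to 28648657 were counted on the reverse strand of genes, the strand used here. Multimapping fragments, which the counts leave out, were 5.44% to 10.6% of a library and highest in siCTL replicate 1, without which no call of a member against siCTL was lost. The libraries were sequenced at either of 2 companies, and which library went where is not given in the labels, so no values within a company could be computed. The targeted genes checked the labels. Mean CPM (counts scaled to the library total and TMM factor) were 119 in siCTL and 22.8 in siCARM1 for CARM1, 196 and 38.4 for HDAC2, 164 and 48.7 for GATAD2A, and 166 and 27.5 for KDM1A. CHD4 fell less, from 37.3 to 25.6 CPM, a log2 fold change of -0.54 ± 0.07 (SE). CHD4 was also lower in siCARM1, at 29.7 CPM (log2 fold change -0.32 ± 0.07, called), and GATAD2A rose in siCHD4 to 346 CPM (1.08 ± 0.05). Of 8 markers of HEK293 cells, KRT8, KRT18, VIM, NEFL and LIN28B were high in siCTL (64.7 to 1139 CPM) and INA, NEFM and PAX2 lay below 1 CPM. Of the 6 tested, 4, 5, 2, 3 and 4 were called in siCARM1, siCHD4, siHDAC2, siGATAD2A and siKDM1A. VIM went from 375 CPM in siCTL to between 495 and 681 in 4 knockdowns and to 240.3 in siGATAD2A, and INA from 0.60 to 4.03 CPM in siCHD4. Of 7 markers of other cell types, PTPRC and HBB had no count in siCTL, ALB, ESR1 and KRT5 lay below 0.1 CPM, GFAP was at 1.85 CPM and COL1A1 at 105 CPM. KRT5 reached 2.81 and 2.48 CPM in siCHD4, and COL1A1 was lower than siCTL in 4 knockdowns. INA (1.21) and KRT5 (0.63) exceeded the 0.5 FPKM needed for testing, a level per length explained below, only in siCHD4. That group thus admitted them to the test, and their calls there are no independent support. The part of these marker shifts in the results was not tested.

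In siCTL, the H3K9 demethylase KDM3B had the highest level per length, at 32.2 ± 0.33 FPKM (SD, n = 2), and KDM4C the lowest, at 3.34 ± 0.18 FPKM. FPKM is the count divided by exonic length and by the library's total on genes, and it is used here wherever levels of different genes are compared. Between these lay KDM2A at 17.0 ± 0.09 FPKM, KDM5A at 14.9 ± 0.18, KDM4A at 11.0 ± 0.50, KDM4B at 10.4 ± 0.33, KDM6B at 6.39 ± 0.08, KDM3A at 5.71 ± 0.16, KDM2B at 5.42 ± 0.05 and KDM5B at 3.73 ± 0.11 FPKM. Each gene of this order was above the next in both siCTL libraries, with no overlap, except KDM4A and KDM4B, whose libraries overlapped (10.7 and 11.4 against 10.2 and 10.7 FPKM). Exonic length was that of all annotated exons, and the order therefore also depends on how many isoforms are annotated. KDM4A shares 40.2% of its exonic bases with another gene on the same strand, so its place in the order is uncertain.

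The summed level of the 10 genes was 110.2 ± 0.62 FPKM in siCTL and lay between 117 ± 2.90 (siKDM1A) and 131 ± 2.24 FPKM (siCHD4) in the knockdowns. The 10 knockdown libraries (115 to 132 FPKM) did not overlap the siCTL libraries (109.7 and 111 FPKM). All 10 lay above both siCTL libraries for 8.59% of single tested genes, and the share for sums of 10 genes was not computed. The higher sum was not shared by all members. In siCHD4, KDM2A and KDM2B together went from 22.4 to 37.8 FPKM, and KDM4A, KDM4B and KDM4C together from 24.8 to 21.7. KDM2A and KDM2B together made up 20.3 ± 0.25% of this sum in siCTL and 28.98 ± 0.01% in siCHD4. KDM6B rose from 5.80 ± 0.11% to 9.93 ± 0.02% of the sum in siCHD4 and to 9.46 ± 0.21% in siGATAD2A, and the share of KDM4A, KDM4B and KDM4C together was 22.5 ± 0.46% in siCTL against 16.6 ± 0.13% in siCHD4. These shares of a sum move against each other by construction and were not tested. In bulk RNA, fewer cells of a type and less RNA per cell cannot be told apart.

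**Figure D1:**
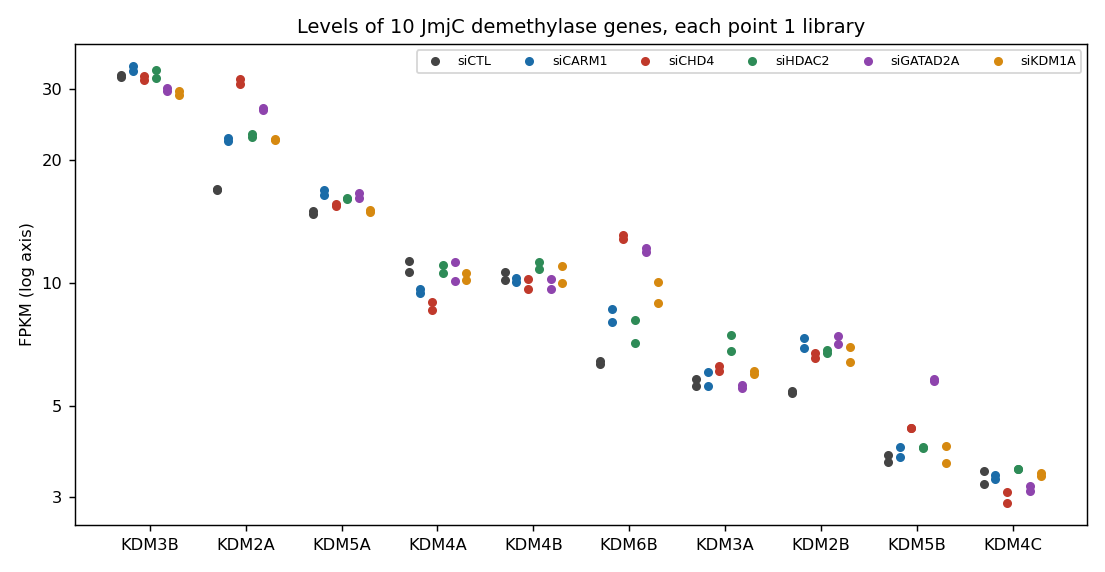
FPKM (log axis) of the 10 genes, ordered by their mean in siCTL, in each of the 12 libraries, with 1 point per library and 1 colour per siRNA group. KDM3B is highest in siCTL at 32.2 FPKM and KDM4C lowest at 3.34, and for KDM2A, KDM6B and KDM2B both siCTL points lie below all knockdown points.

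Against siCTL, 18 of the 50 values (10 genes in 5 knockdowns) rose, 1 fell and 31 did not pass the test. A gene was called at an adjusted p of 0.05 or less in edgeR's quasi-likelihood test and a fold of at least 1.2, which is 0.26 on the log2 scale. Over all tested genes, 15.6% of such values were higher and 15.8% lower. At least 1 call was made for 6 of the 10 members and for 72.9% of all tested genes. The members were chosen with earlier results of these data known, so their counts beside these shares are description and no test of the family. In siCARM1 3 members rose, against a background of 14.5% of tested genes higher and 14.7% lower. In siCHD4 4 members rose and 1 fell, beside 23.6% of tested genes higher and 25.1% lower. For siHDAC2 the count was 4 higher (10.4% of tested genes higher, 9.22% lower). For siGATAD2A it was 4 higher (15.4% and 18.4%) and for siKDM1A 3 higher (14% and 11.8%). The median log2 fold change of the 10 members was 0.05, 0.12, 0.10, 0.05 and 0.03 in siCARM1, siCHD4, siHDAC2, siGATAD2A and siKDM1A, and the median of all tested genes lay within 0.01 of 0 in each. The 5 comparisons share the 2 siCTL libraries, so calls in several knockdowns are not independent of each other. With 2 libraries against 2, an exact permutation test of a single gene cannot go below a two-sided p of 0.333, and the adjusted p-values rest on edgeR's spread over genes.

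**Figure D2:**
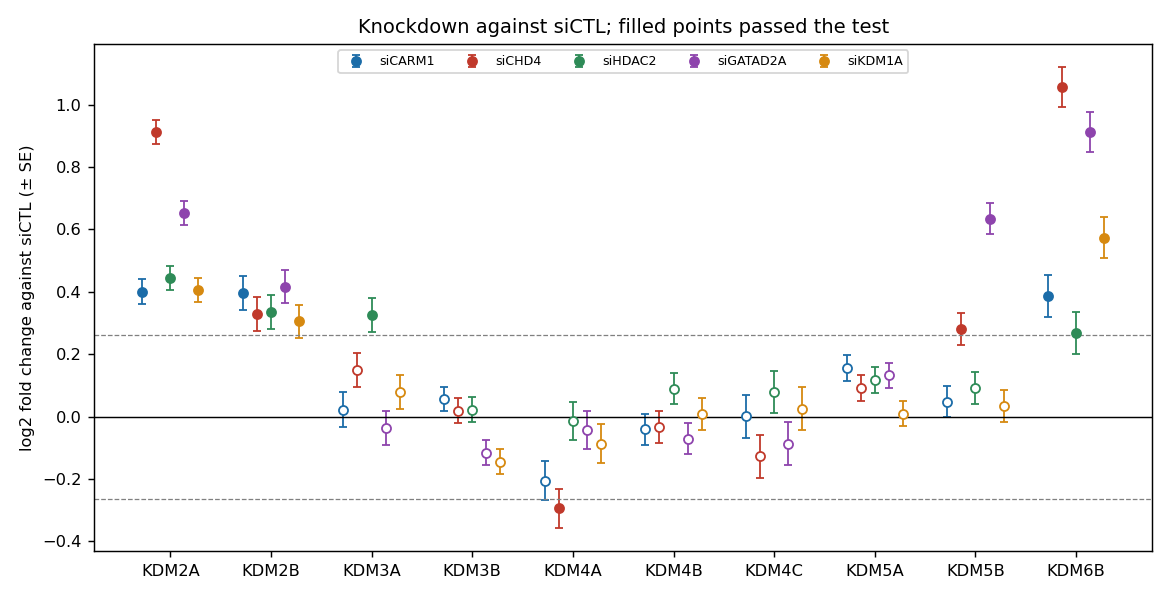
Log2 fold change against siCTL with its standard error for the 10 genes (horizontal axis) in the 5 knockdowns (colours), from edgeR. Filled points passed the test, and dashed lines mark the fold of 1.2. KDM2A, KDM2B and KDM6B are filled and above 0 in every knockdown, and KDM4A in siCHD4 is the one filled point below 0.

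KDM2A, KDM2B and KDM6B accounted for 15 of the 18 higher values. Over all tested genes, 289 (2.25%) were called higher in all 5 knockdowns. For each of the 3, all 10 knockdown libraries lay above both siCTL libraries, which held for 8.59% of tested genes, while all 10 lay below for 9.11%.

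KDM2A, an H3K36 demethylase with a CXXC domain (ENSG00000173120.15, chr11:66886734-67025553 on GRCh37), had 176 and 175 CPM in the 2 siCTL libraries. It reached 334 and 327 CPM in siCHD4 and 277 and 275 in siGATAD2A. The values were 240.1 and 238 CPM in siHDAC2, 234 and 229 in siCARM1, and 234 and 231 in siKDM1A. The siCHD4 libraries were the highest of all, those of siGATAD2A came next, and the other 3 knockdowns lay together between siCTL and these. The log2 fold change was 0.91 ± 0.04 (SE) in siCHD4 (edgeR adjusted p = 4.15e-19) and 0.65 ± 0.04 in siGATAD2A (edgeR adjusted p = 6.59e-15). It was 0.44, 0.41 and 0.40 in siHDAC2, siKDM1A and siCARM1, each with an SE of 0.04 and with edgeR adjusted p-values from 2.32e-10 to 8.02e-10. The CG-rich window printed above belongs to this gene, and 6.54% of its exonic bases are shared with a lncRNA on the opposite strand.

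KDM2B, the paralogue of KDM2A known for recruiting Polycomb complexes to CpG islands (ENSG00000089094.19, chr12:121866899-122018928 on GRCh37), rose in each knockdown by 0.31 to 0.42 on the log2 scale. The siCTL libraries had 73.9 and 73.4 CPM. The knockdown libraries ran from 87.0 CPM (siKDM1A) to 101 CPM (siGATAD2A), with 99.8 and 93.8 in siCARM1, 93.7 and 91.3 in siCHD4, and 92.0 and 93.8 in siHDAC2. The second siKDM1A library lay lowest among them at 87.0 CPM, its partner being at 95.1, and the siGATAD2A pair was at 96.0 and 101. The log2 fold changes lay between 0.31 ± 0.05 (siKDM1A, edgeR adjusted p = 2.83e-05) and 0.42 ± 0.05 (siGATAD2A, edgeR adjusted p = 9.12e-08). KDM2B was the one member for which the 5 knockdowns were not shown to differ (edgeR adjusted p = 0.192, quasi-likelihood F test). Without the first siKDM1A library, its value in siKDM1A was 0.24 and below the fold minimum.

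KDM6B, an H3K27 demethylase also known as JMJD3 (ENSG00000132510.10, chr17:7737535-7758114 on GRCh37), showed the widest range of log2 fold changes among the members. It had 47.3 and 46.7 CPM in siCTL, 99.1 and 96.6 in siCHD4, and 87.6 and 89.5 in siGATAD2A. In siKDM1A it had 74.5 and 65.6 CPM, in siCARM1 63.7 and 59.1, and in siHDAC2 52.6 and 60.2. The groups siCHD4, siGATAD2A and siKDM1A were separated from each other and from the rest, while the siCARM1 and siHDAC2 libraries overlapped. The log2 fold change was 1.06 ± 0.06 in siCHD4 (edgeR adjusted p = 2.39e-15), 0.91 ± 0.06 in siGATAD2A (edgeR adjusted p = 2.47e-13) and 0.57 ± 0.07 in siKDM1A (edgeR adjusted p = 2.09e-08). It was 0.39 ± 0.07 in siCARM1 (edgeR adjusted p = 1.52e-05) and 0.27 ± 0.07 in siHDAC2 (edgeR adjusted p = 0.00217). The siHDAC2 call rested on single libraries: the value was 0.16 (edgeR adjusted p = 0.125) without the second siHDAC2 library and 0.26, under the fold minimum, without the second siCTL library.

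**Figure D3:**
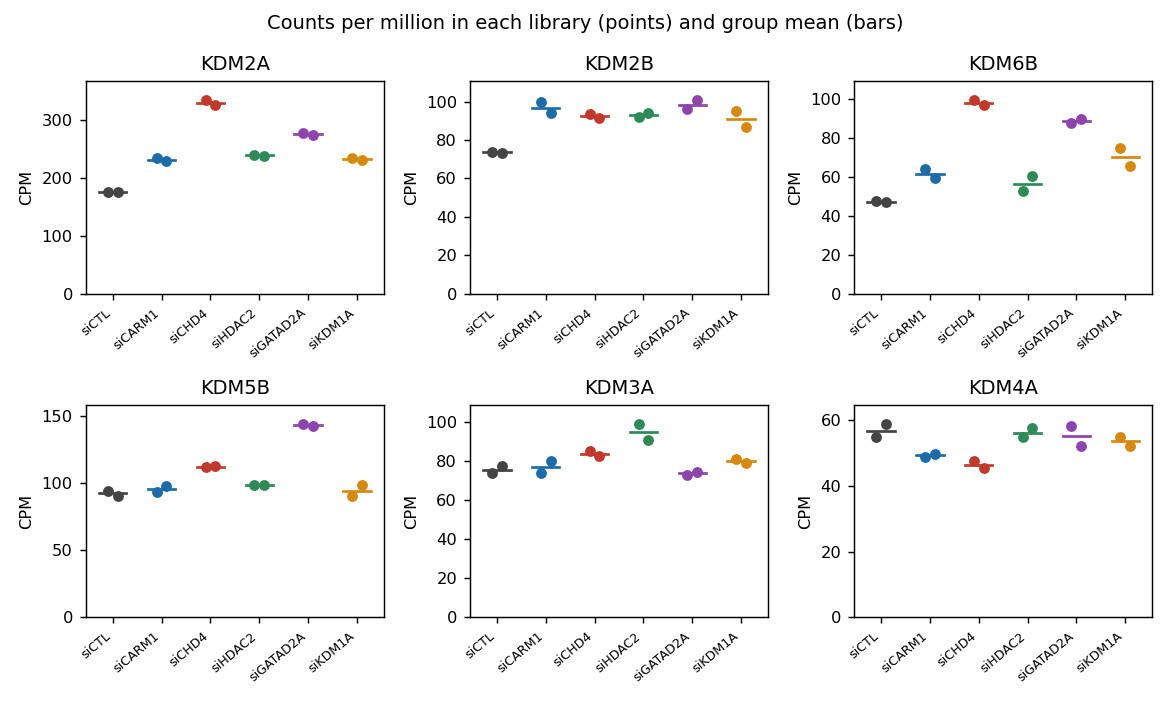
CPM of the 6 members with at least 1 call, on axes that start at 0, with each library as a point and the mean of the 2 libraries of a group as a bar. KDM2A, KDM2B and KDM6B lie above siCTL (176 and 175, 73.9 and 73.4, and 47.3 and 46.7 CPM) in every knockdown library, KDM5B stands highest in siGATAD2A at 144 and 143 CPM, KDM3A in siHDAC2 at 99.1 and 90.9, and KDM4A lowest in siCHD4 at 47.5 and 45.4.

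KDM5B, an H3K4 demethylase (ENSG00000117139.18, chr1:202693623-202777615 on GRCh37), rose in 2 of the 5 knockdowns. It had 94.1 and 90.8 CPM in siCTL, 144 and 143 in siGATAD2A, and 112 and 113 in siCHD4. The 3 other groups lay close to siCTL, with 93.1 and 98.1 CPM in siCARM1, 98.7 and 98.3 in siHDAC2, and 90.3 and 98.8 in siKDM1A. Only siGATAD2A and siCHD4 were separated from all other groups. The log2 fold change was 0.64 ± 0.05 in siGATAD2A (edgeR adjusted p = 2.79e-12) and 0.28 ± 0.05 in siCHD4 (edgeR adjusted p = 1.34e-05), and 0.03 to 0.09 in the remaining knockdowns, none of which passed. The siCHD4 value was just above the fold minimum and was 0.26 without the second siCTL library, which ended the call.

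Its paralogue KDM5A (ENSG00000073614.13, chr12:389223-498486 on GRCh37) had 14.9 FPKM in siCTL against 3.73 for KDM5B and was not called. It had 179.9 and 178 CPM in siCTL and 178 to 202 CPM in the knockdowns. There 9 of 10 libraries lay above both siCTL libraries, but the share of tested genes with such a count was not computed. The log2 fold changes were 0.01 to 0.16, and 4 of the 5 had an adjusted p of 0.05 or less in edgeR's quasi-likelihood test, each below the fold minimum.

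The H3K9 demethylases KDM3A and KDM3B did not move alike in siHDAC2. KDM3A (ENSG00000115548.17, chr2:86667770-86719839 on GRCh37), whose gene is known to be induced by hypoxia, had 73.9 and 77.4 CPM in siCTL and 99.1 and 90.9 in siHDAC2. The other knockdown libraries ran from 73.2 CPM (siGATAD2A) to 85.1 CPM (siCHD4), so the siHDAC2 pair was above all other libraries. Its log2 fold change in siHDAC2 was 0.32 ± 0.05 (edgeR adjusted p = 2.28e-05), and in the other 4 knockdowns it was -0.04 to 0.15, none called. KDM3B (ENSG00000120733.14, chr5:137688374-137772717 on GRCh37) had 250.2 and 255 CPM in siCTL and 225 to 266 CPM in the knockdowns. It was not called in any knockdown, with log2 fold changes from -0.14 ± 0.04 (siKDM1A) to 0.06 ± 0.04 (siCARM1). In siKDM1A and siGATAD2A all 4 libraries (225 to 235 CPM) lay below both siCTL libraries, but the share of tested genes with this pattern was not computed.

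The KDM4 enzymes included the one member value that fell. KDM4A (ENSG00000066135.13, chr1:44115820-44171189 on GRCh37) had 54.8 and 58.8 CPM in siCTL, 47.5 and 45.4 in siCHD4, and 48.9 and 49.8 in siCARM1. It lay between 52.2 and 58.1 CPM in the other knockdowns, where the libraries of each group overlapped siCTL. The log2 fold change was -0.29 ± 0.06 in siCHD4 (edgeR adjusted p = 0.000149), which passed, and -0.21 ± 0.06 in siCARM1 (edgeR adjusted p = 0.0074), which missed the fold minimum. The siCHD4 value was -0.24 without the second siCTL library and -0.26 without the second siCHD4 library, both under the fold minimum. In the annotation, 40.2% of the exonic bases of KDM4A are shared with ENSG00000284989, a coding gene on the same strand that had no count in any library, and 9.12% with KDM4A-AS1 on the opposite strand. Reads on bases shared on the same strand cannot be assigned to one gene, and the level of KDM4A would be too low if they were left out. KDM4A-AS1 is set apart by the strand.

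KDM4B (ENSG00000127663.15, chr19:4969124-5153609 on GRCh37) and KDM4C (ENSG00000107077.19, chr9:6720863-7175648 on GRCh37) were not called in any knockdown. KDM4B had 149 and 157 CPM in siCTL and 142 to 167 CPM in the knockdowns, and KDM4C had 35.5 and 33.2 CPM in siCTL and 30.5 to 36.4 in the knockdowns. Both ranges spanned the siCTL libraries. For the 4 uncalled members KDM3B, KDM4B, KDM4C and KDM5A, the 20 values ran from -0.14 to 0.16 on the log2 scale. In edgeR 6 of the 20 had an unadjusted p below 0.05, and DESeq2 also called 0 of 20. Their 95% intervals reached no further than -0.27 and 0.24 on the log2 scale.

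Comparisons among the knockdowns, which leave siCTL out, showed where the members differed by target. The 5 knockdown means differed for 9 of the 10 members in edgeR's F test, as they did for 88% of tested genes. Under 17 alternative settings, KDM4C kept this result in 11, KDM4B in 14 and KDM5A in 15. KDM2B, the member not shown to differ, passed in 1. Against the mean of the other 4 knockdowns, 2 members were called with siCHD4 (45.3% of tested genes), 2 with siHDAC2 (19.4%) and 2 with siGATAD2A (26.9%). With siCARM1 1 member was called (22%) and with siKDM1A 0 (19.7%). In siKDM1A 4 of the 10 had an unadjusted p below 0.05 in edgeR, with log2 differences of -0.23 (KDM5B), -0.20 (KDM2A), -0.14 (KDM3B) and -0.11 (KDM5A), and DESeq2 was not run on this contrast.

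KDM6B was called in 4 of the 5 contrasts. It was higher in siCHD4 by 0.52 ± 0.05 (SE) on the log2 scale (edgeR adjusted p = 1.63e-11) and in siGATAD2A by 0.34 ± 0.05 (edgeR adjusted p = 3.27e-07). It was lower in siHDAC2, with a difference of -0.46 ± 0.05 (edgeR adjusted p = 9.14e-09), and in siCARM1, with -0.32 ± 0.05 (edgeR adjusted p = 4.63e-06). The siCARM1 call was lost without the second siCARM1 library, when the difference was -0.26, and with it the count of members called there fell to 0.

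KDM2A was higher in siCHD4 than in the mean of the others by 0.44 ± 0.03 (edgeR adjusted p = 1.91e-14) and was not called in the other 4 contrasts, where the differences were -0.20 to 0.11. In pairs, KDM2A in siCHD4 exceeded siGATAD2A (siGATAD2A minus siCHD4 = -0.26 ± 0.04), while siKDM1A and siCARM1 differed by 0.01 ± 0.04. KDM5B was higher in siGATAD2A by 0.52 ± 0.04 (edgeR adjusted p = 3.43e-13), and in pairs it was above siCHD4 by 0.35 ± 0.05. KDM3A was higher in siHDAC2 by 0.27 ± 0.04 (edgeR adjusted p = 3.88e-06), just past the fold minimum. It was 0.26 without the first siCARM1 library and 0.21 without the first siHDAC2 library, which left 1 member called in siHDAC2. The KDM3A call was also lost with corrections for exonic length and for GC content, and was kept in 14 of 18 alternatives.

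**Figure D4:**
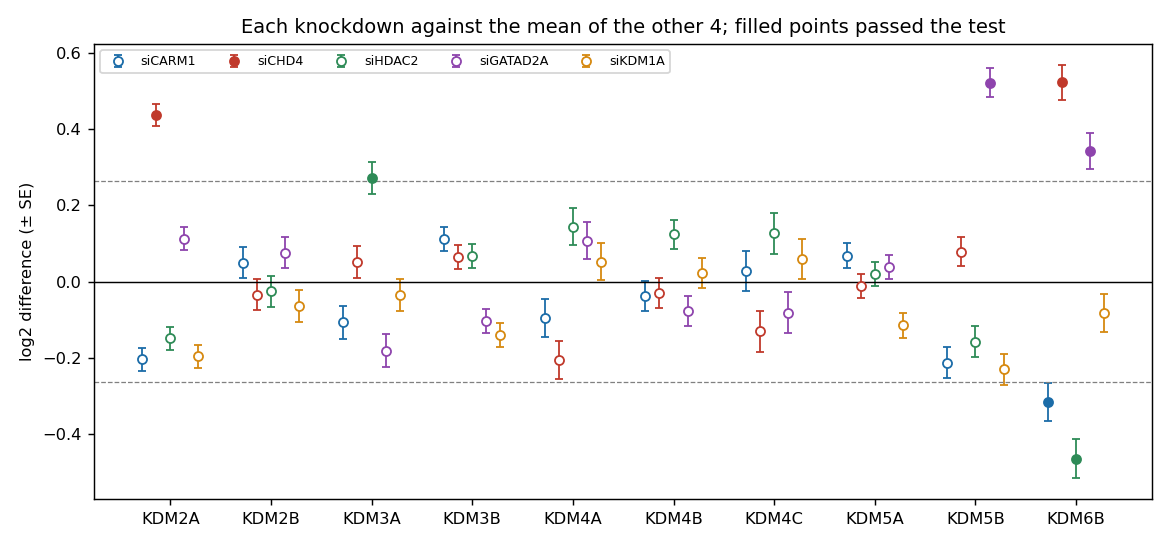
Log2 difference, with its standard error, between each knockdown (colours) and the mean of the other 4 for the 10 genes, from edgeR. Filled points passed the test and dashed lines mark the fold of 1.2. KDM6B spreads from -0.46 in siHDAC2 to 0.52 in siCHD4, and the KDM2B points all lie between -0.06 and 0.08.

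Levels of the other JmjC proteins were read from a list of 20 genes, of which 19 were tested. In siCARM1 4 rose and 3 fell, and siCHD4 had 5 higher and 3 lower. The counts of higher and lower genes were 1 and 1 for siHDAC2, 7 and 0 for siGATAD2A, and 2 and 2 for siKDM1A. Together 28 of 95 values (29.5%) were called, near the 31.4% of all gene-by-knockdown values. The median log2 fold change of the listed genes was 0.04, 0.11, 0.00, 0.10 and 0.02, in the order in which the knockdowns were given above. HR, the hairless corepressor, and JMJD8, an endoplasmic reticulum protein, were called in 4 knockdowns each, HR in siHDAC2 not without the second siCTL library (edgeR adjusted p = 0.0521). HR was scarce, with 0.82 and 0.65 CPM in siCTL, but reached 11.7 and 12.6 CPM in siCHD4, a log2 fold change of 4.05 ± 0.22. Like INA and KRT5, HR exceeded the FPKM needed for testing only in siCHD4 (1.49, against 0.09 in siCTL). That group admitted HR to the test, and its call there is no independent support. JMJD8 fell in siCARM1, siCHD4, siHDAC2 and siKDM1A by 0.36 to 0.58 on the log2 scale, and 37.5% of its exonic bases are shared with STUB1 on the opposite strand. RIOX1, a ribosomal oxygenase with 1.39 and 1.30 CPM in siCTL, had 8.81 and 8.88 CPM in siCHD4 (log2 fold change 2.72 ± 0.25).

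KDM6A, the X-linked paralogue of KDM6B, and KDM5C, that of KDM5A and KDM5B, are named here after their values were seen. KDM6A was not called in any knockdown, with log2 fold changes from -0.03 to 0.16. KDM5C fell in siCARM1 (-0.39 ± 0.04) and rose in siGATAD2A (0.34 ± 0.04), and in siGATAD2A KDM5B rose as well.

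The flavin-dependent demethylase KDM1B fell in siCHD4 (-0.48 ± 0.08) and siGATAD2A (-0.43 ± 0.08). It had 31.6 and 29.8 CPM in siCTL, 22.3 and 21.6 in siCHD4, and 21.0 and 24.5 in siGATAD2A. In siKDM1A, where its paralogue was the target, KDM1B had 34.3 and 35.7 CPM and a log2 fold change of 0.19 ± 0.08, which did not pass.

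The enzymes that write the marks these demethylases remove were read from 4 lists, beside a share of 31.4% of all gene-by-knockdown values called. For the H3K4 methyltransferases 9 of 30 values (30%) were called, for the H3K9 methyltransferases 4 of 30 (13.3%) and for the H3K36 and H3K27 lists 0 of 25 and 0 of 20. Of 6 H3K4 methyltransferases, those higher numbered 1 for siCARM1, 3 for siCHD4, 1 for siHDAC2 and 2 for siGATAD2A, and 1 was lower for siCARM1 and 1 for siKDM1A. KMT2A rose in siCHD4 (0.49 ± 0.04) and siCARM1 (0.28 ± 0.04), KMT2C in siCHD4 (0.43 ± 0.04) and siHDAC2 (0.40 ± 0.04), and KMT2D in siGATAD2A (0.37 ± 0.04) and siCHD4 (0.32 ± 0.04). Of 6 H3K9 methyltransferases, SUV39H1 fell in siCHD4 (-0.62 ± 0.06) and siCARM1 (-0.47 ± 0.06), and in siCHD4 SUV39H2 rose (0.40 ± 0.07) and SETDB2 fell (-0.35 ± 0.12). With the correction for exonic length, KMT2A in siCARM1 was 0.11 and KMT2C in siHDAC2 0.21, both under the fold minimum. KMT2A in siCARM1 was 0.25 without the first siCARM1 library, and SETDB2 in siCHD4 did not pass without the first siCTL (-0.28) or first siCHD4 library (-0.34). None of the 5 H3K36 methyltransferases and none of the 4 genes of the H3K27 methyltransferase complex was called in edgeR or DESeq2. For the first list 11 of 25 values, and for the second 5 of 20, had an unadjusted p below 0.05 in edgeR.

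Other dioxygenases of the same chemistry were read from the TET enzymes, which oxidize methylcytosine, and the EGLN enzymes, which hydroxylate HIF. TET1 rose in siCARM1 (0.40 ± 0.06), siCHD4 (0.36 ± 0.06) and siHDAC2 (0.27 ± 0.06), and TET3 in siGATAD2A (0.49 ± 0.05), siCHD4 (0.34 ± 0.05) and siCARM1 (0.27 ± 0.05). The siHDAC2 call of TET1 ended without the second siCTL library (0.24) or the first siHDAC2 library (0.20), and the siCARM1 call of TET3 without the first siCTL library (0.26) or the first siCARM1 library (0.25). TET2 fell in siCHD4, from 46.7 and 41.8 CPM in siCTL to 27.3 and 24.3 CPM. The 3 EGLN genes had 0 of 15 values called by edgeR or DESeq2, with 0 at an unadjusted p below 0.05 in edgeR. For the TET and EGLN genes together 7 of 30 values (23.3%) were called, beside 31.4% of all values.

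Because KDM3A and KDM4B are known targets of hypoxia signalling, 12 genes induced by hypoxia were read beside them, 11 of them tested. In siHDAC2, where KDM3A rose, 1 of the 11 rose and 3 fell, with a median log2 fold change of -0.14. Of all tested genes there, 10.4% were higher and 9.22% lower. In siCARM1 1 rose and 0 fell, and siCHD4 had 4 higher and 2 lower. With siGATAD2A 1 rose and 4 fell, and with siKDM1A 1 rose and 2 fell. Over the 5 knockdowns 19 of 55 values (34.5%) were called, near the 31.4% of all gene-by-knockdown values. Whether hypoxia signalling had a part in the values of KDM3A or KDM4B was not tested. VEGFA, an angiogenic growth factor, rose in all 5 knockdowns by 0.36 ± 0.07 (siHDAC2) to 1.39 ± 0.07 (siCHD4). PFKFB4 fell in siCHD4 (-1.31 ± 0.14) and siGATAD2A (-0.40 ± 0.12), and NDRG1 in siGATAD2A (-0.98 ± 0.05) and siHDAC2 (-0.30 ± 0.05). The siGATAD2A call of PFKFB4 was lost without the second siCTL library (-0.30, edgeR adjusted p = 0.123).

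Most members have long transcripts, and the length of a gene moved with its fold change. The exonic length of the members lay between percentiles 48.1 (KDM4A) and 99.2 (KDM5B) of tested genes, with KDM2A at 85.6, KDM2B at 93.1 and KDM6B at 70.1. The median log2 fold change of all tested genes went from -0.07 among the shortest 20% to 0.05 among the longest 20% in siHDAC2, from -0.06 to 0.06 in siCARM1, and from -0.02 to 0.01 in siCHD4. With a correction for exonic length, the siHDAC2 calls of KDM2B (0.25), KDM3A (0.24) and KDM6B (0.23) fell below the fold minimum, leaving KDM2A as the 1 member called there. In the other 4 knockdowns, KDM2A, KDM2B and KDM6B were called under this correction as well.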

How the data were processed

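RNA-seq libraries of HEK293T cells were made with a directional kit and read as pairs. The deposited values are raw counts per Ensembl gene and library, not normalized, in an unstranded column and a column per strand. The submitters' processing notes name CASAVA 1.4, STAR 2.7.10 and hg19. The annotation behind the deposited counts is not given in the sources used here. The study's methods instead name alignment by TopHat to RefSeq and counting by HOMER, so the deposited counts may differ from those behind its own figures. The layout leaves out multimapping reads.

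Reverse-strand counts were used. Identifiers were matched to GENCODE 44 on GRCh37 (96.7%), and the 1954 without a match (1.75% to 2.61% of counts) and 44 pseudoautosomal copies were left out. CPM used TMM factors (0.980 to 1.01). Coding genes with FPKM above 0.5 in at least 1 group mean were tested with edgeR 4.0.16 (R 4.3.3) in 1 model of 6 group means, with Benjamini-Hochberg adjustment over 12830 genes. Alternatives were DESeq2 1.42.0, RLE size factors, other filters, unstranded counts, a replicate block, only the 2 groups compared, no fold minimum, each library left out and, added after the data were seen, loess corrections (span 0.3) for exonic length and GC content. The 2 libraries of each group differed by more than counting noise, so none was taken as 1 library deposited again, but this cannot tell repeat preparations of 1 RNA from separate cultures. The membership rule uses names alone, but the members and gene lists were chosen with earlier results of these data known. Named were all members and targets, and from each list up to 3 genes called in the most knockdowns, others being marked.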

Additional observations from a re-analysis of the deposited data

Results flagged for a closer look

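The 5 knockdowns gave different changes of the same gene for 4 members, by the edgeR contrast of each knockdown with the mean of the other 4. KDM6B differed in siCHD4 (0.52 on the log2 scale), siGATAD2A (0.34), siHDAC2 (-0.46) and siCARM1 (-0.32). KDM2A differed in siCHD4 (0.44), KDM5B in siGATAD2A (0.52) and KDM3A in siHDAC2 (0.27). In each case both libraries of that knockdown lay on the stated side of the mean of the others. Of 18 alternatives, the KDM3A call in siHDAC2 was kept in 14 and the KDM6B call in siCARM1 in 16.

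Counts on the opposite (forward) strand of the members, which no comparison used, were above the upper limit of the siCTL level in both libraries of a knockdown for 2 genes. In siCTL KDM2A had 0.991 CPM on this strand, with an exact Poisson upper limit of 1.34 that covers counting error only, and it had 1.55 CPM in siCHD4, 1.42 in siGATAD2A and 1.58 in siKDM1A. As a share of the reverse-strand count of KDM2A this was 0.480%, 0.512% and 0.679%. The reverse-strand level of KDM2A was itself called higher in these knockdowns. Forward counts were 21 and 21 in siCTL and 38 and 40 in siCHD4, beside mean reverse-strand counts of 3732 and 8122.5. In siCHD4 and siGATAD2A the forward counts rose no more than the reverse-strand count did, and in siKDM1A they rose more, which was not tested. KDM4B had 1.98 CPM on the forward strand in siCTL (upper limit 2.45) and 2.87 CPM in siCHD4, with 65 and 79 counts in the 2 libraries, while its reverse-strand level there was not called. KDM6B in siCHD4 was above its limit of 1.12 CPM in 1 library (1.87 CPM) and not in the other (0.823 CPM). These values were not tested across genes.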

How the results depend on the processing

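The alternatives gave 700 values of the members against siCTL (50 values, 14 alternatives each). Of these, 680 kept their side of the threshold, 12 dropped below it and 8 passed it. None that was called, in the main test or the alternative, reversed direction. Values with no call in either could change sign and still count among the 680. KDM5B in siCARM1, at 0.05, ran from -0.09 to 0.09 under the alternatives. The share of tested genes called with no fold minimum is not given here. Without that minimum, the number of members called rose in every knockdown against siCTL, to 5 in siCARM1. Against the mean of the other 4 knockdowns it was 5 for siCARM1 and siGATAD2A, 4 for siCHD4 and siKDM1A, and 6 for siHDAC2. With the correction for exonic length it was 1 in siHDAC2 against siCTL, and 2 in siCARM1 and 1 in siHDAC2 against the other 4. With the correction for GC content it was 0 in siCARM1 and 1 in siHDAC2 against the other 4. With each library left out in turn, it lay between 3 and 5 in siCHD4 against siCTL, the 3 being without the second siCTL library. Against the other 4 it lay between 0 and 1 in siCARM1, 1 and 2 in siHDAC2, and 0 and 1 in siKDM1A, where the 1 was KDM5B (-0.30) without the second siKDM1A library. The call of KDM6B in siHDAC2 was also lost with no filter (0.25) and with unstranded counts (0.25), and that of KDM5B in siCHD4 with no filter (0.24). Beyond the construction of each alternative, the cause was not tested.

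Same-numbered libraries did not deviate together in all groups: the correlation of their deviations was positive in 10 of 15 pairs of groups. With a replicate block the number of members called against siCTL was 3 for siCARM1, 5 for siCHD4, 4 for siHDAC2 and for siGATAD2A, and 3 for siKDM1A, and no count moved. With 2 libraries a group, changes near the 1.2-fold minimum are the least certain.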
